A study of Oryza sativa with 60 samples.

Results

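Messenger RNA of the longest and the shortest anthers of a rice size series was compared, at 2.5 mm against 0.4 mm. The comparison rests on 6 libraries of the 60 in the series, chosen by their titles: 3 of polyadenylated RNA from 2.5 mm anthers and 3 from 0.4 mm anthers. The plants of both groups were wild-type Kitaake, a japonica rice cultivar much used for transformation, grown in a greenhouse with 16 hours of light at 30°C and 8 hours of dark at 25°C. Each library came from total RNA of 20 to 30 pooled anthers. The groups differ in anther length alone as far as the labels say, and the labels give no developmental stage. The other 24 libraries of mRNA, from 8 lengths between 0.6 and 2.0 mm with 3 biological replicates each, were used to place each change within the series.

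The anther is the pollen-bearing organ of the stamen. In a young anther, somatic wall layers surround the sporogenous cells, which enter meiosis and give rise to microspores. The innermost wall layer, the tapetum, feeds the microspores and supplies material for the pollen wall, and it is later broken down by programmed cell death. Microspores then divide and mature into pollen, which stores many mRNAs that are used at germination and in growth of the pollen tube. An anther is thus a mixture of tissues whose shares shift as it lengthens. In such bulk samples, fewer cells of a type and less RNA per cell cannot be told apart.

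The deposited tables gave FPKM, fragments scaled by transcript length and by all mapped fragments of the library, for 35594 gene IDs of a Kitaake annotation. An FPKM is a share of its library, so a high level of some genes lowers the values of others. None of the IDs (0 of 35594) occurs in the reference table of gene symbols, and the files do not pair IDs with names. Functions are therefore not given, and neither the tissue label nor any marker gene could be checked. For the same reason only 2 rising and 2 falling IDs are printed. The depth of the libraries is unknown. Summed FPKM were 510671 to 539693 in the 0.4 mm libraries and 579613 to 614878 in the 2.5 mm libraries.

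The library labelled 2.5 mm replicate 3 stood apart from the other libraries of its length. Across the 26091 genes tested, which are not independent replicates, its log2 values correlated at a mean r of 0.892 with replicates 1 and 2 of 2.5 mm and at 0.925 with the 2.0 mm libraries. Replicates 1 and 2 of 2.5 mm correlated with 2.0 mm at 0.731 and 0.762. The 0.4 mm libraries correlated with each other at 0.952 to 0.963. The median SD of a gene between replicates was 0.224 log2 units at 0.4 mm, 0.373 at 2.5 mm and 0.119 at 2.5 mm without replicate 3. The main counts are given below with and without it.

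The largest rise was that of OsKitaake10g182000.v3.1. It was listed at 1.12, 0.452 and 0.886 FPKM in replicates 1, 2 and 3 of 0.4 mm and at 5792, 7089.7 and 4064 FPKM in those of 2.5 mm. The groups lay far apart, with replicate 3 the lowest of the long anthers, and by median rank this was the most abundant gene of 2.5 mm anthers (rank 1 of all IDs) against rank 21586 at 0.4 mm. Its mean went from 0.819 ± 0.339 to 5649 ± 1518 FPKM (mean ± SD, n = 3), which is a rise of 11.58 on the log2 scale (SE 0.615, adjusted p = 1.41e-14 by limma with Benjamini-Hochberg adjustment). Fold changes here are differences of log2(FPKM + 1), which understates the change of genes with low values. The mean at 2.5 mm was 6441 FPKM without replicate 3.

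The next largest rise was that of OsKitaake04g301800.v3.1, from 1.01, 0.408 and 0.764 FPKM to 5251, 4908 and 2878 FPKM. Again the groups did not overlap and replicate 3 was the lowest of the long anthers. The rise was 11.27 on the log2 scale (SE 0.593, adjusted p = 1.21e-14 by limma), and the median rank went from 22040 to 3. At inner lengths both rising IDs were low for most of the series. OsKitaake10g182000.v3.1 had means of 0.617 to 4.40 FPKM from 0.6 to 1.6 mm, then 20.8 ± 14.8 at 1.8 mm and 957 ± 529 at 2.0 mm. OsKitaake04g301800.v3.1 had 0.536 to 2.35 FPKM from 0.6 to 1.6 mm, 10.6 ± 12.5 at 1.8 mm and 506 ± 253 at 2.0 mm. Replicates at 1.8 and 2.0 mm thus varied widely around a mean that was still below each 2.5 mm library.

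The largest fall was that of OsKitaake12g188000.v3.1. It had 2237, 1753 and 1485 FPKM at 0.4 mm, where its median rank was 4, and 0.783, 1.30 and 1.73 FPKM at 2.5 mm. Here replicate 3 was the highest of the long anthers, though still far under every short one. On the log2 scale it fell by 9.65 (SE 0.827, adjusted p = 1.69e-10 by limma). OsKitaake03g279800.v3.1 fell from 701, 549 and 715 FPKM to 0.216, 0.259 and 0.765 FPKM, a log2 difference of -8.87 (SE 0.637, adjusted p = 5.74e-12 by limma). Both falling IDs were already low by the middle of the series. In 0.6, 1.0, 1.2 and 1.4 mm anthers OsKitaake12g188000.v3.1 had means of 1902 ± 391, 896 ± 287, 197 ± 187 and 5.19 ± 1.86 FPKM, in that order. OsKitaake03g279800.v3.1 had 818 ± 135, 205 ± 117, 27.2 ± 34.6 and 2.00 ± 1.11 FPKM at the same lengths. Both falling IDs were thus low at 1.4 mm, where both rising IDs were still low, and 1.2 mm replicates were widely spread. The means of the falling IDs went down further after 1.4 mm, to 1.27 and 0.413 FPKM at 2.5 mm.

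**Figure D1:**
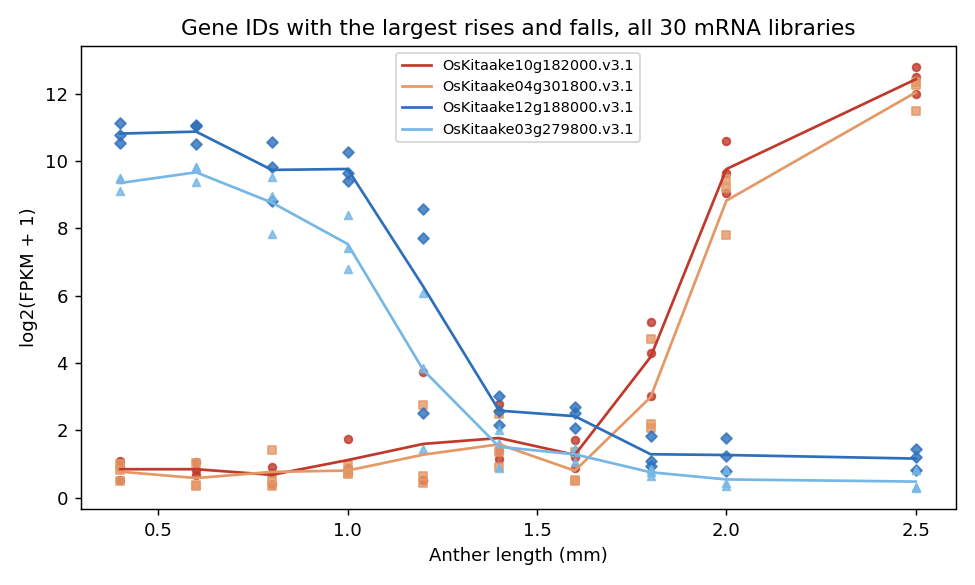
Level of the IDs with the largest rises and falls, as log2(FPKM + 1) on the vertical axis against anther length in mm, with a point for each of the 30 libraries and a line through the means (n = 3). The falling IDs reach low values by 1.4 mm, and the rising IDs leave low values at 1.8 mm.

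Some other genes had a profile over the series like that of these IDs. Likeness was taken as Pearson's r of the mean log2 values over the 10 lengths, which all come from the same libraries, among the other 12379 genes whose mean reached 10 FPKM at either end. A value of at least 0.95 was reached by 219 and 235 genes for the first and the next rising ID, and by 163 and 169 for the falling IDs. Of these, 21, 41, 7 and 7 reached 0.99. Without 2.5 mm replicate 3 the numbers at 0.95 were 206, 220, 143 and 158, and those at 0.99 were 16, 34, 7 and 8. These are descriptions of a shared time course and say nothing of function. The numbers for IDs not picked for their change were not computed.

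Between the ends, 13712 of the 26091 genes tested (52.6%) changed, at an adjusted p under 0.05 and a difference of at least 1 log2 unit in limma. Of these, 3609 were higher at 2.5 mm (13.8% of the genes tested) and 10103 were lower (38.7%). Over all genes the median difference was -0.65 log2 units, and each difference is best read against that shift. The groups did not overlap, with 2.5 mm higher, in 4802 genes (18.4%), and with 2.5 mm lower in 12591 (48.3%). With only replicates 1 and 2 of 2.5 mm these numbers were 5337 and 15812. Fewer libraries make a lack of overlap easier to reach, so these higher numbers are no sign of a clearer difference. Quantile normalization, which gives every library the same distribution of values, moved the median to -0.16 and called 11581 genes, 5143 higher and 6438 lower. The higher genes were thus 26.3% of the calls on the deposited FPKM and 44.4% after that scaling. Of the calls on the deposited FPKM, 9999 were also called in the same direction after quantile normalization and 0 changed direction. Without 2.5 mm replicate 3 the fit called 14791 genes, 3251 higher and 11540 lower.

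**Figure D2:**
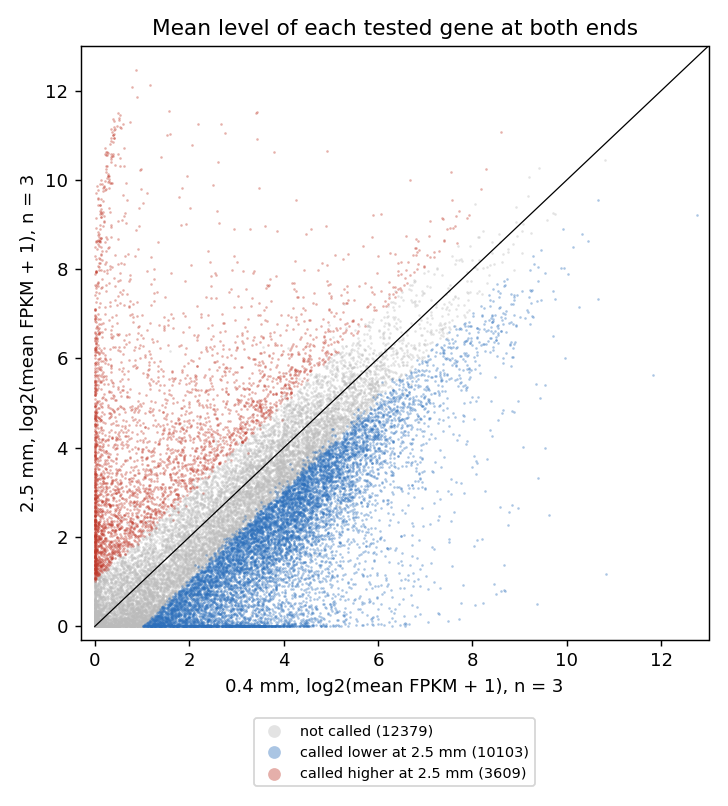
Mean level of each of the 26091 genes tested, as log2(mean FPKM + 1) at 0.4 mm on the horizontal axis and at 2.5 mm on the vertical axis (n = 3 each), with the line of equal values. The 3609 genes called higher include a band of genes near 0 at 0.4 mm that reach high levels at 2.5 mm, and the 10103 called lower form a broad band under the line.

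The same fit gave fewer calls for each shorter length against 0.4 mm, in comparisons that share the 0.4 mm libraries. For 0.6, 0.8 and 1.0 mm it called 1265 (4.85%), 2237 (8.57%) and 3932 genes (15.1%). The numbers for 1.2, 1.4, 1.6 and 1.8 mm were close to each other, with 7051 (27.0%), 7688 (29.5%), 7048 (27.0%) and 7328 (28.1%). For 2.0 mm it called 8954 genes (34.3%). At 2.0 mm the calls were nearly even, 4153 higher and 4801 lower. The difference between the 2.5 and the 2.0 mm comparisons is the contrast of those lengths, in which 7500 genes (28.7%) were called, 1402 higher and 6098 lower in longer anthers. Without replicate 3 it held 10218 calls, 1498 higher and 8720 lower.

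Rises and falls differed in size. A difference of at least 3 log2 units was reached by 1113 of the higher genes and 1303 of the lower genes. At 5 log2 units the numbers were 445 and 140, and at 8 log2 units they were 154 and 3. Without 2.5 mm replicate 3 the numbers were 1055 and 1756 at 3 log2 units, 476 and 172 at 5, and 166 and 6 at 8. The median change was 2.08 log2 units among the higher genes and -1.77 among the lower genes. Both sets also differed in where they started. In the 0.4 mm libraries, the median level of the higher genes was 0.656, 0.619 and 0.918 FPKM and that of the lower genes 12.8, 13.3 and 13.3 FPKM. In the 2.5 mm libraries the higher genes had medians of 14.0, 15.1 and 13.6 FPKM and the lower genes 1.46, 1.71 and 3.82 FPKM. Of 812 genes with at least 100 FPKM at 0.4 mm, 577 (71.1%) were called lower and 40 (4.93%) higher. Of 824 genes with at least 100 FPKM at 2.5 mm, 535 (64.9%) were called higher and 106 (12.9%) lower. Without replicate 3 these were 526 and 52 of 717 genes, and 623 of the 812 abundant genes of short anthers were called lower and 38 higher. Since the same libraries set both the level class and the call, these shares are a description.

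Replicate 3 of 2.5 mm stood closer to the other long-anther libraries in the higher genes than in the lower genes. Measured between the 0.4 mm mean and the mean of the other long-anther libraries, it stood at a median of 95.05% of the way for the higher genes and 65.5% for the lower genes. Replicates 1 and 2, measured the same way, stood at 98.4% and 99.9% for the higher genes. For the lower genes they stood at 120.4% and 114%. Their reference included replicate 3, and each library placed had also entered the calls, so these places are a description. Genes not called also had a higher median in replicate 3, 4.13 FPKM against 2.43 and 2.67 in replicates 1 and 2. The part of such a wider shift in the contrast between the sets was not tested.

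The called genes took up very different shares of the RNA at the ends. Genes called higher held 3.97%, 4.26% and 4.81% of the summed FPKM in the 0.4 mm libraries and 68.5%, 66.3% and 45.8% in the 2.5 mm libraries. Genes called lower held 66.0%, 64.4% and 62.6% at 0.4 mm and 8.54%, 9.74% and 21.6% at 2.5 mm. The groups did not overlap in either share, and replicate 3 was nearest to the short anthers in both. At 2.0 mm the shares were 29.7% ± 1.79 and 32.1% ± 1.33 (mean ± SD, n = 3). Without replicate 3 the means at 2.5 mm were 67.4% for the higher and 9.14% for the lower genes, against 60.2% and 13.3% with it. These genes were chosen by the same contrast, so their shares are given without a test.

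**Figure D3:**
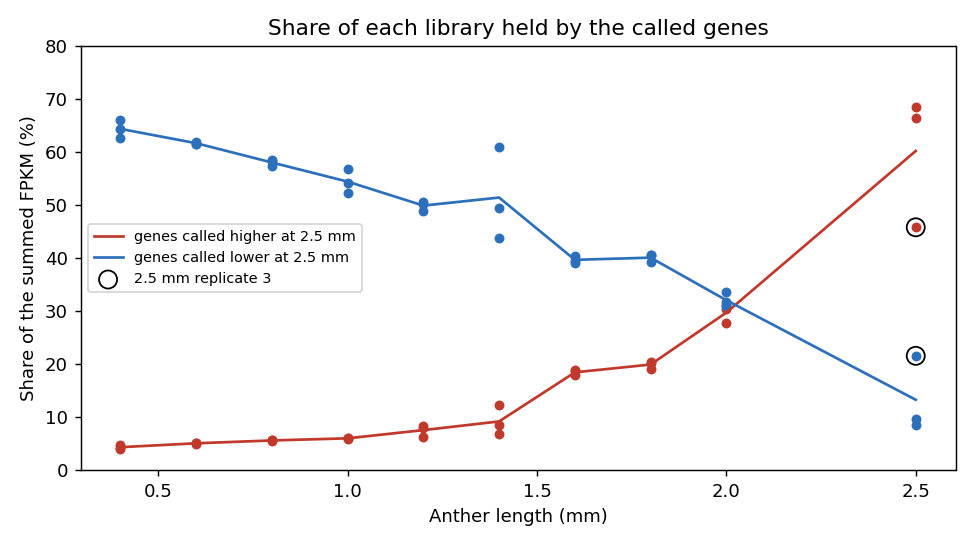
Share of the summed FPKM of each library, in percent, held by the 3609 genes called higher and the 10103 called lower, against anther length in mm. Points are libraries, lines join the means (n = 3), and circles mark 2.5 mm replicate 3. The shares cross at about 2.0 mm, where their means are 29.7% and 32.1%.

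Fewer genes reached 1 FPKM in long anthers, and the 1000 most abundant held a larger share. At least 1 FPKM was reached by 20384, 20380 and 21213 genes in the 0.4 mm libraries and by 17391, 17924 and 19918 in the 2.5 mm libraries. At least 1000 FPKM was reached by 14, 11 and 10 genes at 0.4 mm and by 97, 100 and 58 genes at 2.5 mm. The 1000 most abundant genes of each library held 44.0%, 43.1% and 42.6% of the FPKM at 0.4 mm and 68.9%, 67.6% and 55.1% at 2.5 mm. These measures did not overlap between the groups. Each gave a p of 0.1 in a two-sided exact permutation test, the smallest that 3 against 3 libraries allow. Other limits gave mixed results. At least 5 FPKM was reached by 14026 to 14621 genes at 0.4 mm and by 9713 to 12788 at 2.5 mm, without overlap. The shares of the 100 most abundant genes, 13.3% to 16.9% and 23.3% to 35.1%, did not overlap either. At 0.1 FPKM the groups overlapped, with 25382 to 26528 genes at 0.4 mm and 24186 to 25488 at 2.5 mm. They also overlapped at 100 FPKM, with 735 to 866 and 761 to 944 genes. The shares of the 10 most abundant genes, 3.07% to 6.66% and 6.02% to 7.02%, overlapped too.

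The 100 most abundant genes were almost entirely exchanged. Of the 100 genes with the highest means at 0.4 mm, 3 were among the 100 highest at 2.5 mm, and 2 without replicate 3. Among the 10 highest the number was 0, and among the 1000 highest it was 352, or 268 without replicate 3. The 100 genes of 2.5 mm included 97 called higher and 75 with a mean under 1 FPKM at 0.4 mm, and they held 29.3% of the FPKM at 2.5 mm and 0.800% at 0.4 mm. The 100 genes of 0.4 mm included 82 called lower, yet only 2 of them had a mean under 1 FPKM at 2.5 mm. They went from 14.2% to 3.88% of the FPKM, and their median rank at 2.5 mm was 545. Among the 1000 highest of 2.5 mm, a smaller part, 319 genes, had a mean under 1 FPKM at 0.4 mm, 615 were called higher and 131 lower. Of the 1000 highest of 0.4 mm, 707 were called lower, 51 higher, and 36 had a mean under 1 FPKM at 2.5 mm. Of 86 genes whose mean reached 1000 FPKM at 2.5 mm, 83 were called higher, 63 had under 1 FPKM at 0.4 mm and 10 had at least 1000 FPKM at 2.0 mm. Without replicate 3 there were 99 such genes, 92 of them called higher and 77 under 1 FPKM at 0.4 mm.

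A run of IDs that follow each other in number stood out among the rises. It held 13 IDs, in the part of the annotation whose IDs carry a 9 as their first number, with steps of 18 to 100 between ID numbers. Each rose by 9.04 to 10.95 log2 units, and 12 of the 13 were among the 100 most abundant genes of 2.5 mm. Together they had 3.39, 3.51 and 5.36 FPKM in the 0.4 mm libraries, 297, 866 and 118 FPKM at 2.0 mm, and 34899.5, 32444 and 14535 FPKM at 2.5 mm. This was 6.02%, 5.28% and 2.46% of the FPKM of the 2.5 mm libraries. The long anthers exceeded every other library of the series, and replicate 3 was again the lowest of them. Each ID had 1 transcript entry. Reads shared by near-identical copies could have been split among such IDs, so single values are uncertain, and the sum is given for that reason. The run was chosen after its values were seen.

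The 154 genes that rose by at least 8 log2 units were late as a set. Their median level was 0.175, 0.181 and 0.276 FPKM in the 0.4 mm libraries, 0.171 to 0.228 at 1.6 mm and 12.9 to 51.4 at 2.0 mm. At 2.5 mm it was 1167, 1159.5 and 554 FPKM. At 1.6 mm 112 of them still had a mean under 1 FPKM, and 107 were under 10% of their 2.5 mm mean at 2.0 mm. They held 39.5%, 37.7% and 20.7% of the FPKM at 2.5 mm against 5.22% to 7.34% at 2.0 mm. Replicate 3 thus lay between these lengths in this share.

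The 140 genes that fell by at least 5 log2 units had medians of 79.5, 84.2 and 104 FPKM at 0.4 mm and of 25.7 to 37.5 at 1.0 mm. They had 4.27 to 7.05 FPKM at 1.6 mm, 1.34 to 1.63 at 2.0 mm and 0.251, 0.299 and 0.775 at 2.5 mm. Of these genes, 95 had a mean under 1 FPKM at 2.5 mm. By 1.4 mm 76 of them were under 10% of their 0.4 mm mean, and by 2.0 mm 125 were. At the same limit of 5 log2 units, the 445 rises can be set beside these falls. Of the 445, 420 were still under 10% of their 2.5 mm mean at 1.4 mm, 377 at 1.6 mm and 247 at 2.0 mm. The median of their means was 0.449 FPKM in 1.4 mm anthers, 17.8 in 2.0 mm anthers and 241 in 2.5 mm anthers.

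Some genes were listed near 0 throughout one end. A level of at least 1 FPKM in all 3 libraries of 2.5 mm and under 0.1 FPKM in all 3 of 0.4 mm was found for 472 genes, and the opposite for 748. Without 2.5 mm replicate 3 the numbers were 658 and 1026. A rule that all libraries must pass can only gain genes when a library is left out. Leaving out each other library of the ends in turn gave 493 to 622 and 798 to 892. The genes on at 2.5 mm reached higher levels: 51 of the 472 had a mean of at least 100 FPKM there, up to 929, whereas 0 of the 748 reached 100 FPKM at 0.4 mm. Of the 472, 251 were listed at 0 in all 3 libraries of 0.4 mm, and of the 748, 509 were listed at 0 in all 3 of 2.5 mm. No fold is given for these, since the depth behind a value of 0 is unknown.

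The time course of these genes was uneven. Of the 472, 127 (26.9%) first kept a mean of at least 1 FPKM at 2.5 mm, 141 (29.9%) from 2.0 mm on and 89 (18.9%) from 1.6 mm on. Of the 748, 331 (44.3%) first dropped under 1 FPKM at 0.8 mm and 150 (20.1%) at 0.6 mm, while 5 first did so at 2.5 mm. Here a gain was timed by the length from which the mean stayed at 1 FPKM or more, and a loss by the first length below it. When a loss was also timed by the length from which the mean stayed under 1 FPKM, 131 of the 748 (17.5%) were lost at 0.6 mm and 316 (42.2%) at 0.8 mm. When a gain was timed by the first length at 1 FPKM or more, 118 of the 472 (25.0%) were gained at 2.0 mm and 112 (23.7%) at 2.5 mm.

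Each log2 fold change between the ends is the sum of 9 steps between adjacent lengths, so the step that carried most of a change can be named. The inner lengths did not enter the difference itself, although they entered the estimate of the spread. For 1171 of the 3609 higher genes (32.4%) the step with the largest rise was that from 2.0 to 2.5 mm, for 1064 (29.5%) that from 1.4 to 1.6 mm and for 652 (18.1%) that from 1.8 to 2.0 mm. Steps up to 1.4 mm carried the largest rise for few genes, with 57 to 214 each. For the lower genes the step from 2.0 to 2.5 mm led with 5518 of 10103 (54.6%), followed by that from 1.4 to 1.6 mm with 1110 (11.0%). The last step also spans the widest gap in length. Among the falls it led without each library in turn, with 4147 to 7488 genes. Among the rises the order rested on single libraries. Without 2.5 mm replicate 3 the last step carried 1272 rises against 857 for 1.4 to 1.6 mm, but without replicate 1 it carried 912 against 1163 and without replicate 2 it carried 894 against 1112. After quantile normalization it still led, with 2107 rises and 2156 falls, so its counts among the higher and the lower genes both depended on the scaling. With a pseudocount of 0.1 FPKM, the step from 1.4 to 1.6 mm led among the rises, with 1370 genes against 985.

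**Figure D4:**
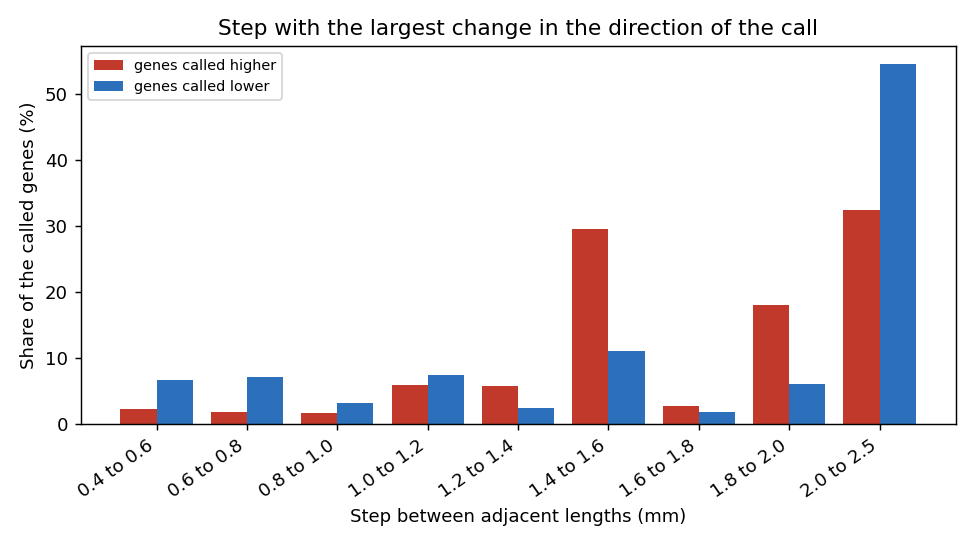
Share of the 3609 genes called higher and of the 10103 called lower, in percent, by the step between adjacent lengths (mm) with the largest change in the direction of the call. Rises peak at 1.4 to 1.6 mm (29.5%) and 2.0 to 2.5 mm (32.4%), and falls at 2.0 to 2.5 mm (54.6%).

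The median course of the called genes gave another view of the timing. By 1.0, 1.4, 1.6, 1.8 and 2.0 mm, higher genes had covered medians of 0.105%, 8.86%, 34.9%, 47.0% and 78.0% of their log2 change. Lower genes had covered 25.7% at 1.0 mm and 46.0% at 1.2 mm, then 38.9% at 1.6 mm and 53.7% at 2.0 mm. The largest gain of the median higher gene thus lay between 1.8 and 2.0 mm, but after quantile normalization, with 41.5% covered by 1.8 mm and 66.2% by 2.0 mm, it lay in the last step. With a pseudocount of 0.1 FPKM it lay between 1.4 and 1.6 mm, with 18.5% covered by 1.4 mm and 50.3% by 1.6 mm. The place of the largest gain thus depended on the setting. The return of the median lower gene between 1.2 and 1.6 mm went with a shift of all genes, whose median difference from 0.4 mm was -0.36 log2 units at 1.2 mm and -0.12 at 1.6 mm. Quantile normalization did not show the return, with 41.4% covered by 1.2 mm, 53.3% by 1.6 mm and 76.4% by 2.0 mm. With replicate 3 left out, on the deposited FPKM, lower genes had covered 40.1%, 31.0% and 42.4% by these lengths. The higher genes had then covered 39.3% by 1.8 mm and 69.6% by 2.0 mm, so the last 2 steps were nearly equal.

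Most called genes stayed between their end levels, but a part did not. Of the higher genes, 2713 (75.2%) kept within 1 log2 unit of the range between the ends at every inner length, and 671 (18.6%) exceeded their 2.5 mm mean by at least 1 log2 unit at some inner length. These peaked most often at 2.0 mm (267 genes) and 1.6 mm (197 genes). Of the lower genes, 9091 stayed within that range and 934 (9.24%) exceeded their 0.4 mm mean by as much, with peaks most often at 1.4 mm (220 genes) and 0.6 mm (199 genes). Without replicate 3, 2451 higher and 10315 lower genes stayed within the range, and 565 and 1168 exceeded the higher end. For such genes the comparison of the ends misses the highest level.

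A further set differed by under 1 log2 unit at the ends, without a test of likeness, and was much higher between them. Of 12225 genes whose end means differed by under 1 log2 unit, 1443 exceeded both ends by at least 2 log2 units at some inner length and differed among the 10 lengths at an adjusted p under 0.05 (F-test in limma). As far below both ends lay 46 genes, a number limited by the added 1 FPKM, since with a pseudocount of 0.1 FPKM it was 286. The peak was at 1.4 mm for 444 (30.8%), at 1.6 mm for 295 (20.4%), at 1.2 mm for 222 (15.4%) and at 1.0 mm for 175 (12.1%). The median excess over the higher end was 2.90 log2 units and the largest 9.99. Of the 1443, 863 had means under 1 FPKM at both ends, and 39 of these reached at least 100 FPKM between them. For these 863 the added 1 FPKM keeps any difference of the ends under 1 log2 unit, so that limit does not show likeness. Without 2.5 mm replicate 3 the numbers above and below were 1581 and 40. Anthers of the shortest and the longest class thus shared low levels of many genes that marked the middle of the series.

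**Figure D5:**
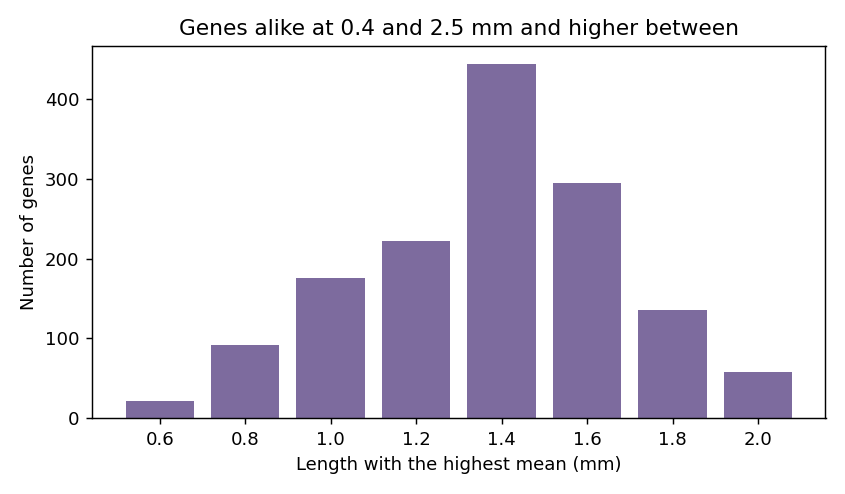
Number of genes whose means at 0.4 and 2.5 mm differed by under 1 log2 unit and whose mean at an inner length exceeded both by at least 2 log2 units, by the length (mm) of their highest mean. The 1443 genes peak at 1.4 mm (444 genes).

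Genes that were not called are not thereby shown to be alike. Of the 12379 genes not called, 4377 passed the limit on the adjusted p but differed by under 1 log2 unit. The 95% confidence interval of the difference lay within 1 log2 unit of 0 for 5786 genes (22.2% of those tested), and for 4792 without 2.5 mm replicate 3. The other 6593 (25.3%) were neither called nor bounded in this way. The bounded genes had a median level of 3.75 FPKM over all libraries, against 6.61 for all genes tested, and values this near the added 1 FPKM limit how large a difference can appear.

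A single gene took a large part of 1 library. It was listed at 15023, 1848 and 3755 FPKM in replicates 1, 2 and 3 of 0.4 mm and at 396, 353 and 1027 FPKM at 2.5 mm, with 83170.1 FPKM, 15.6% of the total, in 1.4 mm replicate 1. The ends did not overlap, and it was called lower (log2 difference -3.17, SE 1.06, adjusted p = 0.0102 by limma). Replicates of one length were widely spread, from 1848 to 15023 FPKM at 0.4 mm and from 1858 to 83170.1 FPKM at 1.4 mm. The gene was singled out for these values. Genes called lower, this gene among them, held 61.0% of the FPKM in 1.4 mm replicate 1, against 43.9% and 49.4% in replicates 2 and 3. This gene alone held 15.6%, 0.355% and 2.18% of the FPKM in replicates 1, 2 and 3 of 1.4 mm. The share of the other lower genes was not computed.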

How the data were processed

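The authors deposited FPKM per transcript entry, named by gene ID only, in 30 mRNA tables of 48494 entries. Tools named in the submitters' processing notes, without their roles, are Bowtie2 2.5.2, cutadapt 3.0, FastQC 0.12, HISAT2 2.1.1 and StringTie 2.1.4. The libraries were directional, per the labels' protocols. The genome build and the counting strand are not given in the sources used here. FPKM were summed per gene ID. Entries could not be matched between libraries, since their order differs. Values above 0 went down to 1e-06 FPKM, so whole reads could not be recovered, depth is unknown, and neither count tests nor counting intervals were used.

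Groups and lengths came from the sample titles. Genes had to reach 1 FPKM in 3 or more of the 30 libraries. The model in limma 3.58.1 (R 4.3.3; lmFit, eBayes with trend) took log2(FPKM + 1) and the 10 lengths as 1 factor. Calls required a difference of 1 log2 unit or more and a p under 0.05 after Benjamini-Hochberg adjustment. The fit was tested on simulated data. IDs named are the largest 2 rises and 2 falls among calls whose groups did not overlap and whose higher mean reached 10 FPKM. Lists of marker genes by symbol matched 0 IDs and were not tested. The comparison, lists and rules were chosen with earlier results of these data known. Alternatives were quantile normalization, rescaling to TPM, a pseudocount of 0.1, dropping the filter, a replicate block, the 6 libraries alone, other limits, and each library left out. Added after seeing the data were most counts without 2.5 mm replicate 3 (abundant genes, shares, fold and level classes, shapes, profiles, the contrast with 2.0 mm), the median course under other settings, both definitions of gain and loss, and rises of at least 5 log2 units over the lengths. Small RNA libraries were not used here.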

Additional observations from a re-analysis of the deposited data

How the results depend on the processing

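All 4 IDs named kept their direction and their call under each alternative tried. After quantile normalization the calls were 5143 higher and 6438 lower, the share of higher genes was 44.4%, the last step carried 2107 rises and 2156 falls, and 7228 genes lay wholly above the 0.4 mm libraries, against 4802 (18.4%) on the deposited FPKM. The share of higher genes was 27.2% without the filter, 23.4% after rescaling to TPM and 25.1% in a fit on the 6 libraries alone, against 26.3%. Leaving out each of the 6 libraries in turn gave 22.0% to 28.7%, the lowest without 2.5 mm replicate 3, and 12639 to 14791 calls. A limit of 2 log2 units left 5857 genes, 1887 higher and 3970 lower (32.2% higher). An upper limit of 0.5 FPKM for the low end gave 1036 genes on at 2.5 mm only and 1570 at 0.4 mm only. With a pseudocount of 0.1 FPKM the genes below both ends numbered 286 instead of 46. The replicate numbers share no stated batch, and same-numbered libraries of the ends deviated together at r = 0.016, -0.070 and -0.031. With the replicate block 13714 genes were called. The cause of these shifts was not tested. Unknown depth limits every value near 0.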

Other observations

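Higher genes had neighbours in ID number called alike more often than all genes tested, while the share of the lower genes was near that of all. Of the 3609 higher genes, 36.5% had a tested neighbour in ID number that was also called higher, against 25.4% of all genes tested. Of the 10103 lower genes, 68.0% had such a neighbour called lower, against 61.5% of all. Among the 154 genes that rose by at least 8 log2 units, 35.7% had a neighbour in the same set, against 1.07% of all genes tested, and the run of 13 IDs described above made up part of them. Among the 140 that fell by at least 5 log2 units the share was 4.29%, against 1.07%, and the longest run held 2 IDs.

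Calls were spread evenly over the numbered parts of the annotation. By the first number of the ID, 1 to 12, between 12.2% and 15.4% of the genes tested were called higher and between 35.7% and 41.0% lower. The 37 genes whose IDs carry an M in that place differed from these ranges, with 2.70% higher and 64.9% lower. Of 6253 genes with at least 2 transcript entries, 12.1% were higher and 43.1% lower, and of 19838 genes with 1 entry, 14.4% and 37.3%.

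The share of a gene's FPKM in its largest transcript entry was similar at the ends. Over 4325 genes with at least 2 entries and at least 1 FPKM in all 6 libraries, its median was 91.4%, 94.5% and 91.6% in the 0.4 mm libraries and 90.9%, 93.6% and 89.8% in the 2.5 mm libraries, so the groups overlapped. Of the 4325 genes, 274 had a share that was larger at 2.5 mm without overlap between the groups, and 345 a smaller one. A difference of at least 20 percentage points was reached by 96 and 126 of these. No gene was tested, and some lack of overlap arises between 3 and 3 libraries without any difference. Entries carry no name of their own, so whether the largest entry is the same transcript in each library is unknown.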
